A study of Drosophila melanogaster with 2 samples.

Results

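The genes described here are 41 homeobox genes of Drosophila melanogaster that act mainly in the embryo and the nervous system. They were taken from a list of names, and the genes named in separate Hox, NK, LIM, Iroquois, eye, segmentation and glial lists were left out. The split is one of names, so the 41 include genes that act in the eye or in early body patterning. All 41 names matched a protein-coding gene of the annotation, out of 13945 protein-coding genes on the 6 arms analysed. Binding of Nf-YA to chromatin was measured by ChIP-seq in whole embryos aged 0 to 24 h. The embryos carried Nf-YA fused to eGFP, and the fusion was precipitated with an antibody against GFP after sonication to 200 to 800 bp. There was 1 group of 2 biological replicates, with no second genotype, stage or treatment, and a control library named in the file records was not analysed here. The labels do not say how many embryos made a replicate, and an embryo collection of this span mixes all embryonic stages and tissues.

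Homeobox genes encode transcription factors that bind DNA through a homeodomain. In the fly embryo they set up body axes, name regions of the head and the nerve cord, and later fix the identity of single neuron types. Nf-YA is the subunit of the NF-Y complex that contacts the CCAAT box, with Nf-YB and Nf-YC as histone-fold partners. Peak lists measure no expression, so neither the tissue nor the activity of a gene could be read from them. A summit is the highest point of a peak. A gene was called when a summit of the pooled thresholded list lay within 500 bp of one of its annotated start sites. The signal of a peak is the authors' value, whose scale is not stated, so it is used to describe and rank peaks within 1 list. How deeply the libraries were sequenced is unknown.

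The bases around 8 summits are shown as examples, with and without CCAAT. They span 50 bp on either side of the summit, from the plus strand of the RefSeq Release 6 genome, or dm6 (5′ to 3′), and hold no annotated exon. Capitals mark CCAAT or its reverse complement ATTGG. The summits are those of E5 (chr3R:13877262-13877362, the tallest near a listed gene), Gsc (chr2L:594780-594880), vvl (chr3L:6789900-6790000), Vsx1 (chrX:5593997-5594097), Dr (chr3R:29556170-29556270), B-H1 (chrX:17397242-17397342), unc-4 (chrX:17768207-17768307) and bcd (chr3R:6759555-6759655). All but that of E5 lay within 500 bp of the gene's start site. CCAAT is more frequent in these 8 windows than at all 56 summits near the listed genes, of which 14 hold it (25%).
E5: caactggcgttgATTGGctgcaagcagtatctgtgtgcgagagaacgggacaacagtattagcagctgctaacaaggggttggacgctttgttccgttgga
Gsc: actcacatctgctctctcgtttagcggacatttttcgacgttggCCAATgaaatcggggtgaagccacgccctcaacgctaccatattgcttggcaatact
vvl: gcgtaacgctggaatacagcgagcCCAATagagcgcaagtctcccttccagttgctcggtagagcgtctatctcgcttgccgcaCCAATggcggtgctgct
Vsx1: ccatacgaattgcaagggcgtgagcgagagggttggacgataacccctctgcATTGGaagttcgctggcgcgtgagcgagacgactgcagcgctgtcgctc
Dr: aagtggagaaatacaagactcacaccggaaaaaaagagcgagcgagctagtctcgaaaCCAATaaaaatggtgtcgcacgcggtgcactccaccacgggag
B-H1: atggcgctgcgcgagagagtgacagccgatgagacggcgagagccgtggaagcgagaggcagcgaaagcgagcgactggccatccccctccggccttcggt
unc-4: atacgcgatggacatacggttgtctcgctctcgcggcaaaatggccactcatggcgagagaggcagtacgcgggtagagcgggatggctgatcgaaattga
bcd: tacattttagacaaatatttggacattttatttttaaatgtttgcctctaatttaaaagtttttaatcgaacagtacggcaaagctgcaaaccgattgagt

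Most of the listed genes had an Nf-YA summit at a start site. The count was 22 of 41 (53.7%), beside 12.5% of all protein-coding genes. A summit in the gene body or within 10 kb of it was found at 34 of the 41 (82.9%), beside 51.6% of all protein-coding genes. For 18 genes (43.9%, beside 6.05% of all protein-coding genes) the start-site peak shared bases with a thresholded peak in both replicates. In the replicates' own thresholded lists, 19 listed genes had a start-site summit in replicate 1 (46.3%, beside 7.54% of all protein-coding genes) and 19 in replicate 2 (46.3%, beside 9.14%). The other homeobox genes, a list of 43 Hox, NK, LIM, Iroquois, eye, segmentation and glial genes, had a start-site summit at 28 (65.1%) and a summit within 10 kb at 37 (86%). These shares are descriptions, since the design has no second group and the lists were not drawn as samples.

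**Figure D1:**
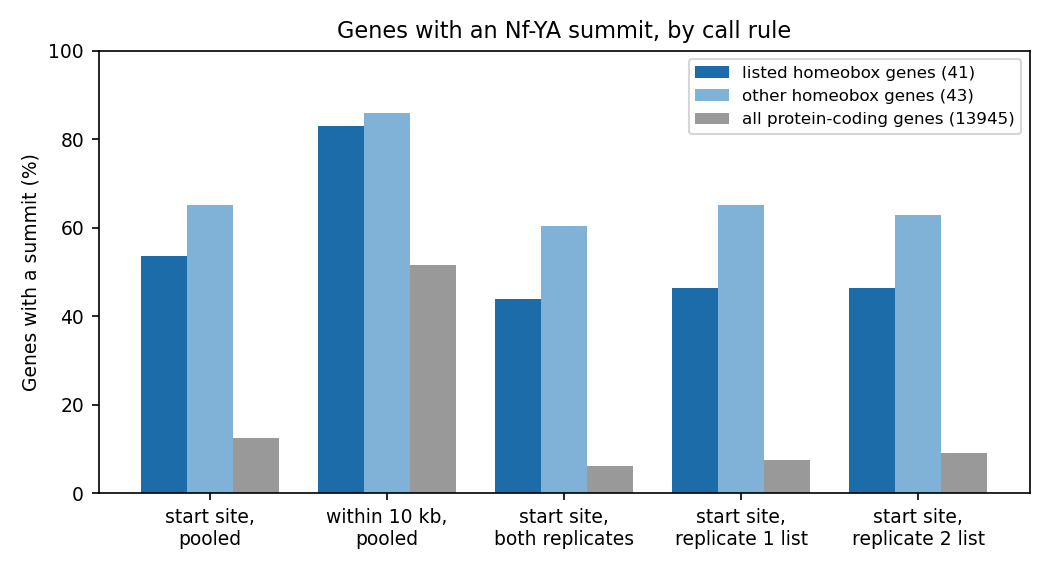
Share of genes with a summit (%) under 5 call rules, for the 41 listed homeobox genes, the 43 other homeobox genes and all 13945 protein-coding genes. Under each rule the listed genes stand above all protein-coding genes and below the other homeobox genes.

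Length differed between the sets, and its part in the shares was not tested. The listed genes had a median length of 9.1 kb, against 2.17 kb over all protein-coding genes, while the median gene of each set had 1 start site. Per length of sequence, the start-site windows held 419 summits per Mb for the listed genes and 94.2 per Mb for all protein-coding genes. The windows reaching 10 kb beyond the gene bodies held 56 summits in 1.46 Mb, or 38.3 per Mb. The same windows held 27.5 per Mb for all protein-coding genes, and the whole of the arms 25.1 per Mb. The other homeobox genes stood above the listed genes on both densities, with 478 per Mb at start sites and 45.2 per Mb within 10 kb. These densities count overlapping windows once.

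Genes that pattern the early body axes were called in part. Of the genes that direct the ends of the body, bcd, the maternal determinant of the anterior, and cad, which acts in the posterior, had a start-site summit. The tallest entry of the ranked lists at the bcd start site had a signal of 44.8 in replicate 1 and 73.2 in replicate 2. At the cad start site it had 51.2 in replicate 1 and 47.9 in replicate 2. The bcd summit lay 139 bp upstream and the cad summit 203 bp upstream. Unlike bcd, its neighbours zen, which specifies the dorsal extraembryonic tissue, and zen2 had none, and the bcd summit was the nearest one to zen at 5411 bp. The nearest summit to zen2 was 15469 bp away, the closest of the 7 genes with no summit within 10 kb.

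Peak signals varied among the genes placed here with head and brain. Against a median pooled signal of 174 over the 23 start-site summits, those of ems, E5 and otp stood above. Those of oc, Gsc and Vsx1 stood below. The genes ems and E5 are neighbouring paralogues, and ems acts as a head gap gene. At the ems start site the signal was 93.7 in replicate 1 and 120 in replicate 2, and at that of E5 it was 133 in replicate 1 and 136 in replicate 2. A second summit 2396 bp upstream of E5 was the tallest of all 56 near the listed genes. It had a pooled signal of 670, the rank 22 of 3354 in the pooled list, and a signal of 339 in replicate 1 and 330 in replicate 2. No other protein-coding start site was nearer to it than that of E5. The head gene oc, also called orthodenticle, had 70.2 in replicate 1 and 66.3 in replicate 2 at a start site, with 3 further summits within 10 kb, the most of any listed gene. For Gsc, a gene of the foregut and brain, the values were 77.3 in replicate 1 and 51.7 in replicate 2. Among genes of brain and visual system, otp had 150 in replicate 1 and 220 in replicate 2, and Vsx1 had 62.6 in replicate 1 and 46.3 in replicate 2. The brain genes Rx and hbn were not called, with the nearest summits 2584 bp and 33963 bp from a start site.

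Genes of neuron identity differed among themselves. The gene unc-4, which acts in motor neurons, had 149 in replicate 1 and 197 in replicate 2. Drgx, a paired-like gene of neurons, had 128 in replicate 1 and 102 in replicate 2. OdsH, the neighbour and paralogue of unc-4, had no summit within 500 bp but a pair 1143 bp and 1348 bp upstream, and was thus the uncalled gene closest to the limit. PHDP, called with a summit 453 bp upstream, was the called gene closest to it. Dr, also known as msh, marks the dorsal column of the neuroectoderm, and had 115 in replicate 1 and 105 in replicate 2. By contrast, ind, the gene of the intermediate column, had no summit within 10 kb of its body. Its tallest start-site entry had 26.3 in replicate 1 and 24.9 in replicate 2 and reached neither thresholded list.

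Several neuronal regulators had no start-site summit in the pooled list. These were exex, a motor neuron gene, acj6, a POU gene of olfactory neurons, bsh, a gene of medulla neurons, onecut, pros, which drives ganglion mother cells towards differentiation, and zfh2. At pros the tallest start-site entry had 13.3 in replicate 1 and 35.3 in replicate 2, but an intron held a summit with a pooled signal of 243. That summit was 585 bp from the start site of KP78a, a gene that lies nearer to it than any start site of pros. At zfh2 the pooled signal was 255 for a summit 3917 bp upstream and 205 for one inside the gene, with both peaks found in each replicate. The start-site entries of zfh2 had only 36.5 in replicate 1 and 19.1 in replicate 2. The gene onecut, on chromosome 4 like zfh2, had no entry at its start site in either ranked list, and its nearest summit was 96867 bp from it.

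Among genes of appendages, sense organs and eye, the limb gene Dll had the tallest start-site peak of the list by pooled signal. That signal, 431, had the rank 75. Its values were 222 in replicate 1 and 211 in replicate 2, and in replicate 2 the start-site entry of otp was taller, at 220. The gene al, which acts at the tips of the appendages, had 102 in replicate 1 and 91.5 in replicate 2. B-H1, a gene of external sense organs and photoreceptors, had 119 in each replicate. Its paralogue B-H2 had 33.4 in replicate 1 and 20.7 in replicate 2, in no thresholded list, and the nearest pooled summit was 21082 bp away. The entries of ro, a photoreceptor gene, had 14.2 in replicate 1 and 60 in replicate 2. Their ranks lay far apart, at 29669 in the ranked list of replicate 1 and 1283 in that of replicate 2. The ro summit was also the 1 start-site summit of the 23 that was nearer to another start site, that of T48 at 259 bp against 304 bp from ro. The photoreceptor gene Pph13 was not called, and its 1 summit within 10 kb lay 70 bp upstream of the start site of cold. The gene ct, which acts in sense organs and at the wing margin, had no start-site summit but 3 summits in introns, each held by the thresholded list of replicate 2 and not by that of replicate 1.

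The POU genes were called more often than the TALE genes, in small classes that carry no test. Of the 4 POU genes 3 were called. The signal at vvl, a gene of tracheal and neural cells, was 143 in replicate 1 and 100 in replicate 2. At nub it was 89.6 in replicate 1 and 81.3 in replicate 2, and at its paralogue pdm2 it was 43.9 in replicate 1 and 27.5 in replicate 2. The summits of nub, pdm2 and hth stood at alternative start sites inside the genes. Of the 4 TALE genes 1 was called. This was hth, which brings the Hox cofactor exd into the nucleus, with 29.6 in replicate 1 and 28.7 in replicate 2, a peak in neither thresholded list. For exd the nearest summit was 97475 bp from a start site, and its own start-site entries had 9.56 in replicate 1 and 9.68 in replicate 2. The paralogues achi and vis, known from spermatogenesis, shared 1 summit that lay closer to a start site of fdl.

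By class, 9 of 13 paired-like and 8 of 15 Antennapedia-like genes were called, as was the 1 gene of the sine oculis class. That gene, Six4, acts in mesoderm and had 34.7 in replicate 1 and 47.5 in replicate 2 at its start site, in neither thresholded list. Of the remaining called genes, Ptx1, the fly Pitx gene, had 119 in replicate 1 and 107 in replicate 2. PHDP had 35.8 in replicate 1 and 51.6 in replicate 2, and the replicate 1 entry nearest its pooled summit had 8. Both cut-class genes, ct and onecut, were uncalled, as were pros, zfh2 and the mesodermal gene btn.

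**Figure D2:**
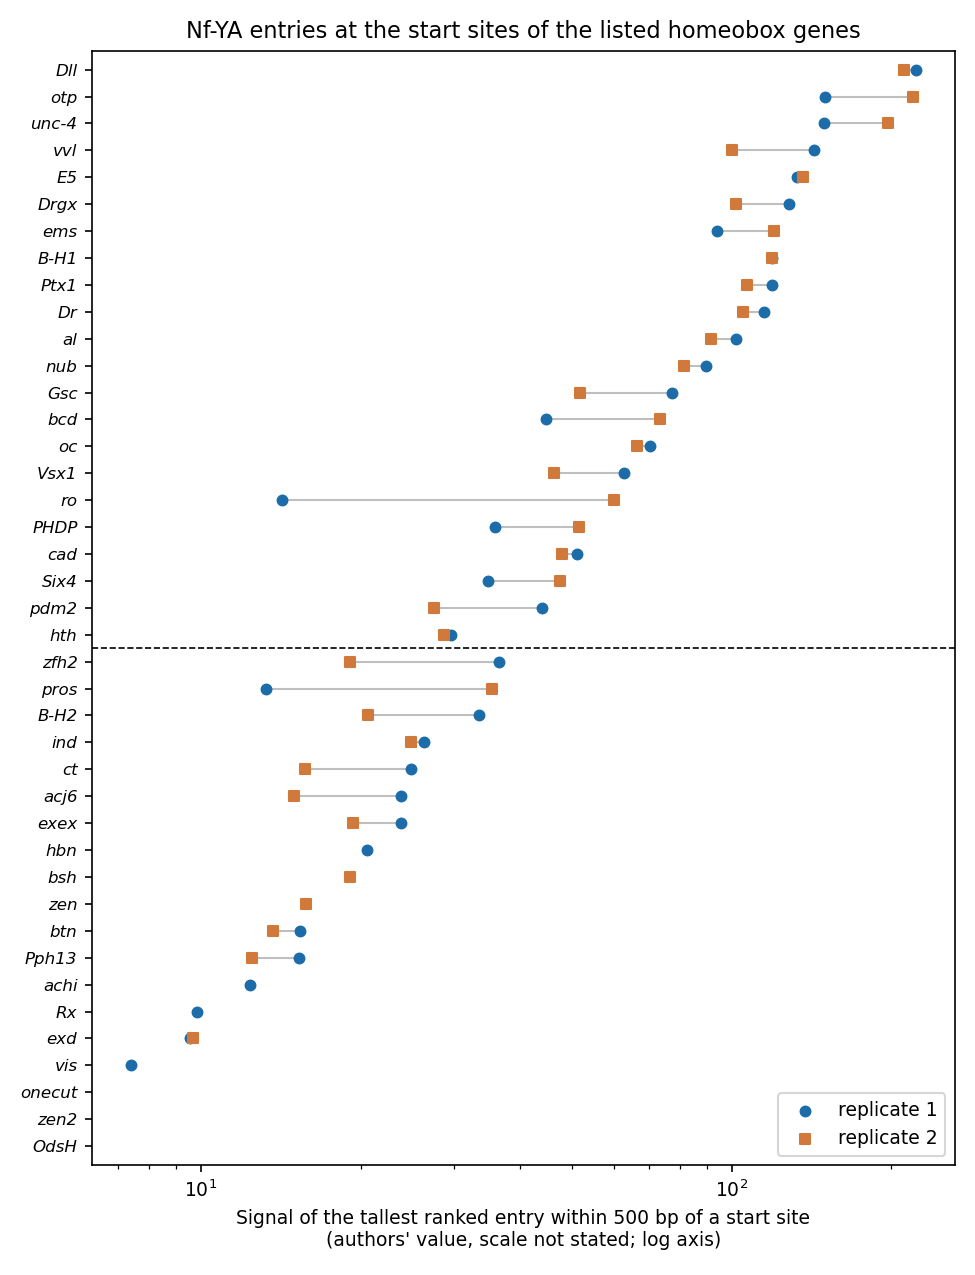
Signal (log axis, authors' value) of the tallest ranked entry within 500 bp of a start site, with circles for replicate 1 and squares for replicate 2, for the 41 genes. The 22 called genes stand above the dashed line, each side ordered by the higher of the 2 values, from Dll, with 222 in replicate 1, down to hth, with 29.6 in replicate 1. In replicate 1 the value of ro (14.2) is below that of hth, and in replicate 2 the value of pdm2 (27.5) is. A missing point means that the list held no entry there.

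The pooled list behind the calls was made from the same 2 replicates, so the ranks of called and uncalled genes are given as a description. Among the 22 called genes every gene had an entry in both ranked lists, with a median rank of 376.5 in replicate 1 and 701.5 in replicate 2. Among the 19 uncalled genes 14 had an entry in replicate 1 and 12 in replicate 2, with median ranks of 17754.5 in replicate 1 and 33170.5 in replicate 2. Over all protein-coding genes with an entry the median ranks were 19072.5 in replicate 1 and 24809 in replicate 2. The signals of called and uncalled genes overlapped. In replicate 1 the uncalled zfh2 and B-H2 stood above hth, and ro, called in the own list of replicate 2 alone, stood at 14.2. In replicate 2 the uncalled pros, at 35.3, stood above hth and pdm2.

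Of the 23 start-site summits, 19 lay in a peak that both replicates' thresholded lists also held (82.6%). Of the 33 other summits within 10 kb, 13 did so (39.4%), and of all 3354 pooled summits 1360 did so (40.5%). The difference between the start-site and the other summits was not tested. This share was not counted over the 1445 pooled summits within 500 bp of any protein-coding start site. Of the 23 start-site summits 56.5% were in the top 25% of the pooled list, against 31.5% of those 1445. For 55 summits near the listed genes each ranked list held an overlapping entry, and across them the replicates' signals had a Spearman's rho of 0.775 and, on the log2 scale, a Pearson's r of 0.628. The pooled list had been thresholded on reproducibility between these replicates, so the coefficients describe selected summits and do not measure agreement between the libraries at large. OdsH and unc-4 each had a low summit, with pooled signals of 11.6 and 13, in a peak that overlaps a taller one. The pair at unc-4 shared its entry in each replicate, and both of its summits are among the 19. The pair at OdsH shared its entry in replicate 2, at 58.6, beside 76.8 and 2.14 in replicate 1. Each of these summits is a point in the coefficients, so shared entries enter them more than once.

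**Figure D3:**
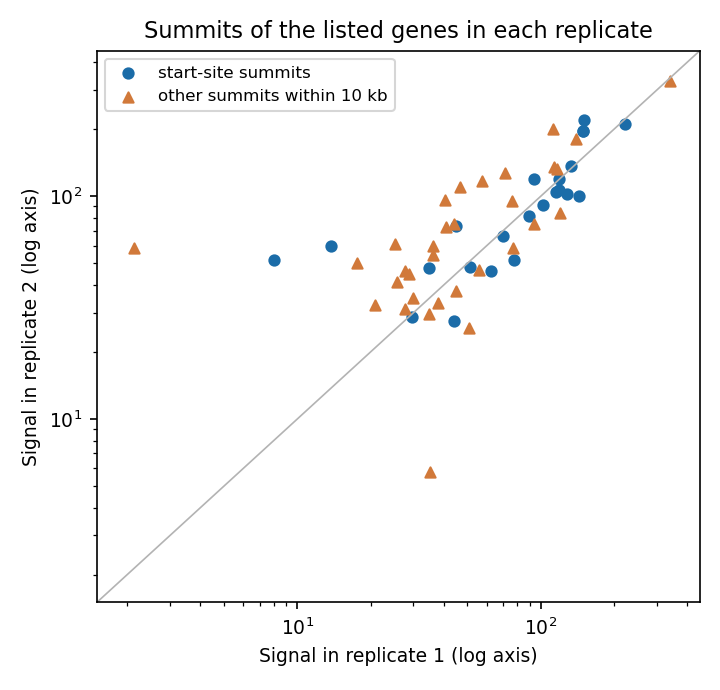
Signal of the overlapping ranked entry with the nearest summit in replicate 1 (x, log axis) and replicate 2 (y, log axis), for 55 of the 56 summits, with circles for start-site summits and triangles for the others. The summit upstream of E5 stands highest, at 339 and 330, and the 1 summit not shown, near nub, had no overlapping entry in replicate 1.

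Start-site summits of the listed genes all lay upstream. For the 22 called genes, the nearest summit was 103 to 453 bp upstream of a start site, with a median of 194 bp, and none lay within 100 bp. Over the 1737 called protein-coding genes 80.4% of the nearest summits lay upstream, 58.4% lay more than 100 bp upstream and 32.5% lay within 100 bp. The other homeobox genes were similar in side, with 28 of 28 upstream, and closer in distance, with 22 more than 100 bp upstream and 6 within 100 bp. The difference between the sets was not tested. In the own list of replicate 1 all 19 called genes had their nearest summit 101 to 344 bp upstream, and in that of replicate 2 all 19 had it 118 to 489 bp upstream. With RefSeq start sites, tried after the pattern was seen, the range was again 103 to 453 bp for 22 genes.

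**Figure D4:**
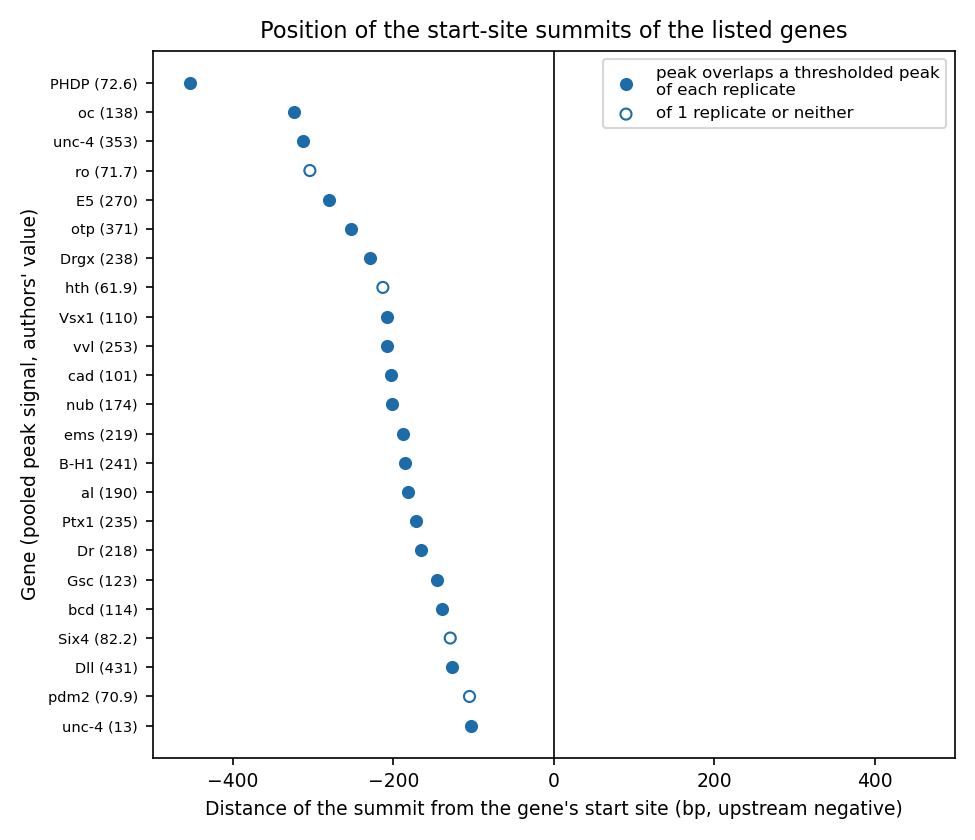
Distance of each start-site summit from the gene's start site (x, bp, upstream negative), 1 row per summit with the pooled signal in brackets, filled where both replicates' thresholded lists held the peak and open otherwise. All 23 points lie between 453 and 103 bp upstream, and none lies downstream.

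The sequence at these summits was rich in G and C. Within 50 bp of the 23 start-site summits the median GC content was 57.4%, against 36.6% at the 1445 pooled summits that met the same limit for any protein-coding gene. The bcd summit shown above was the most AT-rich of the 23, at 28.7% GC, and those of al and Dll were the most GC-rich, at 68.3%. GAGAG or its reverse complement, the pentamer read by GAGA factor, was found at 12 of the 23 summits (52.2%), against 13.9% of the 1445. The windows of unc-4 and B-H1 printed above each hold it. ATTA, the core recognised by many homeodomains, was at 4 of the 23 (17.4%, against 65.1%), and the longer TAATTA at 0 of the 23 (against 9.07%). GC content differs alongside these counts, and its part in them was not tested.

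The bases upstream of the start sites were also GC-rich without a summit. From 100 to 300 bp upstream, a span chosen after the distances were seen, the median GC content was 51.7% at 35 start sites of called listed genes and 46% at 28 start sites of uncalled ones. All start sites of a called gene are included, whether or not the summit lay at that one. Over all protein-coding genes it was 37.3% at start sites of called genes and 36.8% at those of uncalled genes. GAGAG lay in this span at 60% of the start sites of called listed genes and 39.3% of those of uncalled ones, against 29.7% for called and 21.9% for uncalled genes over all protein-coding genes. The other homeobox genes ran the other way, with 54.2% for called and 70.8% for uncalled genes, and their median GC content was 50.5% for called and 51.2% for uncalled genes. The direction of the difference between called and uncalled genes was not the same in both homeobox lists, for GC content and for GAGAG. These differences, of which that in GC content among the other homeobox genes was small, were not tested.

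**Figure D5:**
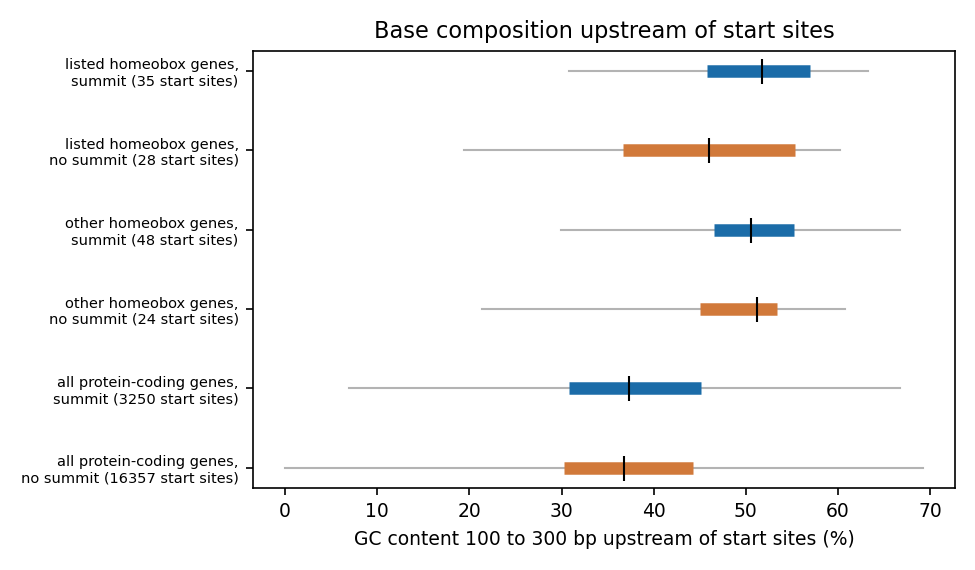
GC content (%) 100 to 300 bp upstream of start sites, with the range as a thin line, the interquartile range as a thick bar and the median as a tick, for genes with and without a start-site summit. The homeobox sets have medians of 46% to 51.7% and all protein-coding genes 36.8% to 37.3%.

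The CCAAT box was found at a minority of the summits. The NF-Y motif, here purine, purine, CCAAT, G or C, purine on either strand, lay within 50 bp of 5 of the 56 summits near the listed genes (8.93%), against 2.5% of all 3354 pooled summits. The 5 summits stood at Gsc, upstream of E5, upstream of pdm2, inside zfh2 and downstream of ro. At Gsc the motif was centred 4 bp from the summit, and this was the 1 start-site summit of the 23 that held it (4.35%, against 2.7% of the 1445). The summit downstream of ro, centred 1 bp from its motif, lay 54 bp from the start site of ball. Its pooled signal of 8.57, with the rank 3269 of 3354, was the lowest of the 56. The overlapping entries had 44 in replicate 1 and 75.3 in replicate 2. The pentamer CCAAT was at 14 of the 56 (25%, against 19.5% of all pooled summits) and at 5 of the 23 start-site summits (21.7%, against 18.8%). Those 5 were at Gsc, vvl, Vsx1, Dr and PHDP, of which the first 4 are printed above. TATCGATA, the element of Dref, was at 0 of the 56, and CAGGTAG, the site of Zelda, at 1 (1.79%). Both are rare at all pooled summits, at 0.835% for TATCGATA and 0.537% for CAGGTAG, and counts of 0 and 1 in 56 are near those shares. GATAA was at 10 of the 56 (17.9%, against 20.6%). With either replicate's own list in place of the pooled list, the NF-Y motif was at 3 of 43 summits in replicate 2 and 2 of 35 in replicate 1. The share over all summits of each of those lists is not given here, so these counts have no comparison. A match is a description of these letters and not a site of binding.

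Away from the start sites, the summits were spread over all sides of the genes. Of the 33 summits that were not at a start site of a listed gene, 15 were upstream of the gene body, 8 in introns, 8 downstream, 1 in a coding exon of otp and 1 in an untranslated exon of pros. The summit shared by Pph13 and Gsc was counted as upstream of Pph13, though it is also downstream of Gsc. With the 23 start-site summits included, 35 of the 56 were upstream and 11 in introns. For 18 of the 56 a start site of another protein-coding gene was nearer than that of the listed gene. Examples were the summit 64 bp from the start site of tzn near Six4 and that 82 bp from the start site of CG10628 near bsh. A summit within 10 kb therefore does not tie the peak to the listed gene. At the limit of 10 kb, the last gene inside was btn, with a summit 9959 bp away and 8829 bp from a start site of Efa6. The signal of the 56 summits had a median of 120, against 87.4 for all pooled summits, and 27 of them (48.2%) were in the top 25% of the pooled list. The own list of replicate 2 placed 43 summits near the listed genes and that of replicate 1 placed 35.

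Several of these further summits were among the taller ones. The summit in the coding exon of otp had a pooled signal of 318, with 112 in replicate 1 and 200 in replicate 2. A summit 6922 bp upstream of Drgx had 325, with 140 in replicate 1 and 181 in replicate 2, and lay inside the gene for, 1130 bp from a start site of it. At pdm2 a summit 1211 bp upstream had 93.6 in replicate 1 and 74.8 in replicate 2, above the values of its start-site summit in both replicates. At nub a summit 585 bp upstream of another start site had 71.8 in replicate 2 and no overlapping entry in replicate 1. The 2 intron summits of hth away from its start sites had pooled signals of 139 and 84.2, above the 61.9 of its start-site summit. The summit downstream of cad, with a pooled signal of 171, was 222 bp from the start site of Pomp, and that downstream of pros, with 177, was 74 bp from the start site of Irbp. The listed genes thus differed in whether their tallest nearby peak stood at their own start site.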

How the data were processed

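Peak lists in dm6 coordinates were deposited by the authors. Per the file records, each came from the alignments of 1 or both replicates and a control. Names of the aligner and peak caller are not given in the sources used here. The deposited signal of a peak is on an unstated scale, so signals were ranked and described within a list only. The deposited offset, another column, gave the summit. The 16 value columns of unnamed inputs in the ranked lists of the whole series were not used.

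Start sites came from Ensembl release 115 (build BDGP6.54), whose arms 2L, 2R, 3L, 3R, 4 and X hold every peak used. Replicate overlap needed 1 shared bp. All listed genes are accounted for, and other genes are named where their start site was nearer. The members, lists and motifs were chosen with earlier results of these data known, and no test was run. Counting was tested on simulated data. Alternatives were other lists, distances, overlaps, motif forms and windows. Tools were pandas 2.3.3, numpy 2.4.6 and matplotlib 3.10.9 under Python 3.11.15, with scipy 1.17.1 for the correlations.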

Additional observations from a re-analysis of the deposited data

How the results depend on the processing

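The count of listed genes with a start-site summit stayed between 17 and 22 under the 9 alternatives tried. It was 19 in the own list of either replicate, beside 9.14% of all protein-coding genes in replicate 2 and 7.54% in replicate 1. In the conservative list it was 19, beside 11.6%, and in the upper 50% by signal 17, beside 7.54%. At 250 bp it was 17, beside 9.59%, and at 1000 bp 22, beside 15.3%. The conservative list is no subset of the pooled list, since 407 of its 3091 summits are not in it. The count found in both replicates stayed at 17 or 18. Genes with a summit within 10 kb numbered 26 to 35 under 6 of the alternatives, but 8 with the gene body alone. The share of all protein-coding genes moved as well. It was 34.2% where the count was 26, without replicate 2, and 68.3% where it was 35, at 20 kb. With the gene body alone it was 10.1%. Summits near the genes numbered 35 to 43 when either replicate was left out, 36 in the upper 50% by signal and 13 in the gene bodies alone. Summits with the NF-Y motif numbered 2 to 3 when either replicate was left out and 2 within 25 bp, and 14 held the pentamer CCAAT. No paired analysis was possible because there is 1 group and no test. In the conservative list and with RefSeq start sites, both tried after the data were seen, each called gene again had its nearest summit more than 100 bp upstream. No control signal, coverage or depth was analysed, so the precision of single signals is unknown.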
